A study of Mus musculus with 6 samples.

Results

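The results below follow one microRNA, miR-124, through both of its arms and all of its recorded sequence forms. Members were the sequences that the deposited annotation named mmu-miR-124-3p or mmu-miR-124-5p. There were 563 such sequences among 109434 in the table, 549 for the 3p arm and 14 for the 5p arm. Of these, 559 were above 0 in at least 1 of the 6 samples and 4 3p sequences were at 0 throughout.

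The samples were short RNAs bound to Argonaute (Ago) proteins in the brains of 3 WT and 3 Tau tg mice. Per the study's methods, the mice were 3-month-old males on a C57BL/6J background, and Tau tg mice expressed a fragment of human tau from the Thy 1.2 promoter, which is active mainly in neurons. Controls were described only as WT or control mice, so no transgene with another protein stood beside the tau fragment. The labels named hippocampus as the tissue, while the protocol gave cortex and hippocampus combined, and the table held no measurement of the transgene. Recovered reads ranged from 998248 to 6879551 per sample, so that 3 reads, taken here as the floor, corresponded to between 0.427 and 2.75 RPM, the unit of the table, which scales the reads of a sequence to the library size. The labels gave each sample a replicate number and did not state how the animals were handled, so the p-values measure the spread between these samples. The comparison addressed whether the RNAs held by Ago shifted towards toxic seeds in the Tau tg brain.

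miR-124 is a neuronal miRNA, abundant in mature neurons, where it represses many transcripts typical of non-neuronal cells. Its hairpin precursor is cut by Drosha and Dicer into a duplex whose 3p arm is the guide that Ago mostly keeps, while the 5p arm is mostly discarded. A miRNA recognises its targets chiefly through the seed near its 5′ end, so a read that begins 1 nt earlier or later (a 5′ isomiR) carries a different seed, while a read that differs only at its 3′ end keeps the same seed. The 6mer seed is taken here as read positions 2 to 7, and seed viability is the authors' percent viability of cells given a short RNA with that seed, averaged over 3 murine cell lines, on a scale that reaches 108.5. A low value therefore marks a toxic seed, and 50% was the limit used below.

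The mouse genome holds 3 miR-124 hairpin genes in the GENCODE M21 annotation of GRCm38. Mir124a-1 lies on chromosome 14 from 64590657 to 64590741, Mir124a-2 on chromosome 3 from 17795662 to 17795770, and Mir124a-3 on chromosome 2 from 180894040 to 180894107, each on the plus strand. Each of them overlaps an exon of a lincRNA, which is Mir124a-1hg, Mir124-2hg and Gm27032, respectively. Reads of the mature arms were not assigned to single genes here.

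The sequences that carry most of the reads are shown first, as deposited with T for U, from 5′ to 3′ and with the 6mer seed in capitals. The first 4 share 1 seed and differ only at the 3′ end, and the other 3 show how an earlier or later start changes the seed.
3p main start, 21 nt: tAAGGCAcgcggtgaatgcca
3p main start, 20 nt: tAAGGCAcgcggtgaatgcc
3p main start, 19 nt: tAAGGCAcgcggtgaatgc
3p main start, 22 nt: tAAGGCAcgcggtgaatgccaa
3p start 1 nt earlier, 22 nt: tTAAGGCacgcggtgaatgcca
3p start 1 nt later, 20 nt: aAGGCACgcggtgaatgcca
3p start 2 nt earlier, 23 nt: cTTAAGGcacgcggtgaatgcca

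The 5p arm is shown by its most abundant form and by the leading read of each of its main alternative seeds.
5p main start, 21 nt: cGTGTTCacagcggaccttga
5p start 2 nt later, 21 nt: tGTTCACagcggaccttgatt
5p start 1 nt earlier, 22 nt: cCGTGTTcacagcggaccttga

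All 549 3p sequences contained the same uninterrupted stretch of 16 bases, and all 14 5p sequences one of 18 bases. The named sequences were thus exact copies in this central part. It was taken as the longest stretch common to all of an arm, so variation appeared only before and after it. Starts were counted from the bases before this stretch, and whether those bases match the hairpin was not tested. Lengths ran from 18 to 27 nt for the 3p arm and from 19 to 25 nt for the 5p arm.

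miR-124-3p was the most abundant miRNA in each of the 6 samples. Its level was 90279, 79406 and 62254 RPM in the WT mice and 62813, 70188 and 47769 RPM in the Tau tg mice. The highest values were those of 2 WT mice and the lowest was that of a Tau tg mouse, but the groups overlapped, since WT 3 lay below Tau tg 1 and Tau tg 2. The means were 77313 ± 14129 RPM in the WT mice and 60257 ± 11426 RPM in the Tau tg mice (SD, n = 3). The log2 fold change was -0.36 ± 0.34 (SE), with an adjusted p of 0.896 in limma, and -0.61 relative to the median of all miRNAs tested, which itself moved by 0.25. Leaving out Tau tg 3 gave -0.20. A difference in level was thus not established, and in tissue fewer neurons and less miR-124-3p per neuron could not be told apart. RPM is relative to the library, so the amount per brain was not measured.

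The margin over the next miRNA varied between mice more than the rank did. miR-124-3p took 9.40%, 8.45% and 6.80% of all reads in WT and 6.42%, 7.28% and 4.95% in Tau tg. It exceeded the second miRNA 1.88-fold, 2.47-fold and 1.20-fold in the WT mice, where that miRNA was let-7c-5p, let-7c-5p and miR-21a-5p. In the Tau tg mice the margin was 1.40-fold over miR-26a-5p, 1.41-fold over let-7c-5p and 1.03-fold over miR-9-5p. In Tau tg 3 the 2 leading miRNAs were thus nearly level.

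The 5p arm was present at a small fraction of the 3p level. It stood at 522, 409 and 126 RPM in the WT mice and 409, 262 and 361 RPM in the Tau tg mice. The WT mice held both the highest and the lowest value, so the Tau tg mice lay within the WT range. Means were 352 ± 204 RPM and 344 ± 75.2 RPM (SD, n = 3), and the limma log2 fold change was 0.17 ± 0.49 (SE, adjusted p = 0.959). The sign of the log2 value and that of the difference of the means, -8.03 RPM, were opposite. Without WT 3, which had only 137 5p reads, the log2 fold change was -0.45.

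**Figure D1:**
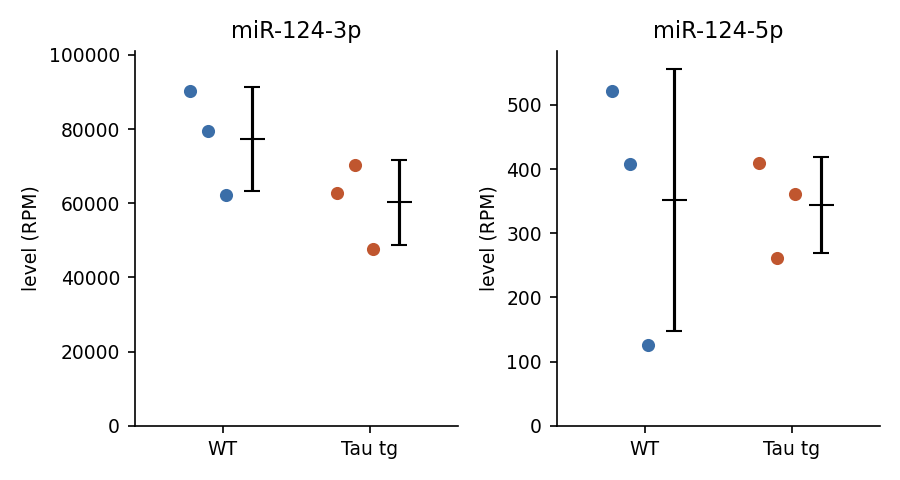
Level of miR-124-3p (left) and miR-124-5p (right) in RPM, on separate axes that start at 0. Points are single mice in replicate order and the black marks are the mean ± SD of 3; the groups overlap for both arms, and the lowest 5p value, 126 RPM, is that of WT 3.

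The ratio of the arms ran from 132-fold in Tau tg 3 to 495-fold in WT 3. On the log2 scale it was 7.43, 7.60 and 8.94 in WT and 7.26, 8.06 and 7.04 in Tau tg. The means of 7.99 ± 0.827 and 7.45 ± 0.536 (SD, n = 3) differed by less than the SD of the WT mice (exact two-sided permutation p = 0.5). Without WT 3 the difference of -0.54 was -0.06. With 3 mice against 3, the smallest p this test can give is 0.1, so no such comparison could pass 0.05. Among 76 hairpins with both arms named and 1 arm at 1000 RPM or more, miR-124 ranked 26 by the absolute log2 ratio of its arms, against a median of 5.97.

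The 3p reads were concentrated in a few sequences. The 21-nt form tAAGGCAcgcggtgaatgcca held 33.2% of the arm, the 20-nt form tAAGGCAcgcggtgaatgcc 17.2%, the 19-nt form tAAGGCAcgcggtgaatgc 13.3% and the 22-nt form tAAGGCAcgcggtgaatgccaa 7.27%. The leading sequence with an alternative seed, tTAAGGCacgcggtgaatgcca, followed with 4.98%. In contrast, 165 of the 563 sequences were seen in 1 sample only, while the 144 seen in all 6 samples held 98.9% of miR-124 reads.

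The most abundant form was not separated between the groups. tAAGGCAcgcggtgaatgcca was at 33128, 25220 and 19202 RPM in the WT mice and 18701, 25038 and 15654 RPM in the Tau tg mice. These ranges overlapped, and the limma log2 fold change was -0.38 ± 0.29 (SE, adjusted p = 0.584). Leaving out WT 1 or Tau tg 3 gave -0.18 or -0.22, and leaving out WT 3 gave -0.57. The form that lacks its last base, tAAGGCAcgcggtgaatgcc, was at 13921, 16248 and 11955 RPM in the WT mice and 11629, 10954 and 6185 RPM in the Tau tg mice. Every Tau tg mouse lay below every WT mouse for this form. Its limma log2 fold change was -0.59 ± 0.32 (SE), with an adjusted p of 0.584, and it was -0.30 when Tau tg 3 was left out. By contrast, the form with 1 more base than the most abundant one, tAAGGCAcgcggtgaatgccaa, was at 5918, 4788 and 4375 RPM in the WT mice and 4862, 5524 and 4542 RPM in the Tau tg mice. These values were interleaved, and its log2 fold change was -0.01 ± 0.36 (SE, limma adjusted p = 0.991).

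Of the 144 sequences seen in all 6 samples, 16 (11.1%) did not overlap between the groups, against 9.31% of all such sequences in the table. Of the 16, 1 was higher in Tau tg, and the split by direction over all such sequences was not computed. Of the 354 miR-124 sequences at 1 RPM or more on average, 11 (3.11%) had an unadjusted limma p under 0.05, against 2.23% of all 36070 sequences tested. Of these 11, 4 (1.13% of the 354) were higher and 7 (1.98%) lower in Tau tg, against 1.44% and 0.787% of all sequences. In edgeR 4 (1.13%) and in DESeq2 11 (3.11%) miR-124 sequences had an unadjusted p under 0.05, against 7.11% and 9.27% of all sequences, so the share lay above the background in limma and below it in the count models. No miR-124 sequence passed 0.05 after adjustment in limma, edgeR or DESeq2, against 0.0277%, 0.136% and 1.27% of all sequences, and the smallest adjusted p in limma was 0.584. Over the 354 sequences the median log2 fold change was -0.29, against -0.16 over all sequences tested.

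The sequences with the largest differences of group means among these 11 were rare forms, each under 0.05% of the arm. They are given here with their seeds, since 4 of the 6 carried bases before the main start. In these 4 the base just before the main start was not U, the base found there in most reads that begin 1 nt earlier. Whether it comes from the hairpin was not tested.
Higher in Tau tg, main start: tAAGGCAcgcggtgaatgcat
Higher in Tau tg, main start: tAAGGCAcgcggtgaatgctt
Higher in Tau tg, 2 nt earlier: gCTAAGGcacgcggtgaatgcc
Lower in Tau tg, 2 nt earlier: aATAAGGcacgcggtgaatgcca
Lower in Tau tg, 1 nt earlier: aTAAGGCacgcggtgaatgc
Lower in Tau tg, 1 nt earlier: gTAAGGCacgcggtgaatgcc

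The first of them, tAAGGCAcgcggtgaatgcat, which keeps the main seed, was at 14.99, 4.07 and 5.50 RPM in the WT mice and 25.3, 44.3 and 49.1 RPM in the Tau tg mice. The groups did not overlap, and the log2 fold change was 2.28 ± 0.89 (SE), with a limma p of 0.0103 before and 0.584 after adjustment. The lower form with the largest difference, aATAAGGcacgcggtgaatgcca, was at 76.4, 81.3 and 10.1 RPM in the WT mice and 6.69, 12.5 and 18.4 RPM in the Tau tg mice. Its groups overlapped, since WT 3 lay within the Tau tg range. The form gTAAGGCacgcggtgaatgcc was at 25.3, 1.36 and 22.9 RPM in the WT mice and 0.569, 0.836 and 1.23 RPM in the Tau tg mice. The Tau tg values were near the floor of 3 reads or below it, and WT 2 lay below its floor of 2.03 RPM. The higher form tAAGGCAcgcggtgaatgctt was at 0, 2.03 and 0.917 RPM in WT and 5.83, 44.3 and 8.18 RPM in Tau tg. The higher form gCTAAGGcacgcggtgaatgcc was at 0, 0 and 0.917 RPM in WT and 2.70, 12.5 and 11.9 RPM in Tau tg. For these forms no WT value lay above 3 reads.

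Seeds were compared next. The 545 detected 3p sequences carried 121 different 6mer seeds, but 3 of these held nearly all reads. The main seed AAGGCA, with a viability of 57.3%, took 82.6% ± 0.795 of 3p reads in WT and 81.7% ± 0.0900 in Tau tg (SD, n = 3). The seed UAAGGC of reads that begin 1 nt earlier had a viability of 31.2%, and the seed AGGCAC of reads that begin 1 nt later one of 30.4%. A shift of the start by 1 nt in either direction thus moved miR-124-3p from above to below the 50% limit. Of the seeds of reads that begin 2 nt earlier, the most abundant, UUAAGG and AUAAGG, had viabilities of 81.9% and 87.7%, while the rarer GUAAGG, at 55.3%, lay just below the main seed.

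The 3 leading seeds were almost entirely miR-124 in these brains. miR-124 supplied 98.4% of all reads in the table that carried AAGGCA, 96.7% of those with UAAGGC and 95.4% of those with AGGCAC. For the 5p arm, 97.1% of reads with its main seed GUGUUC were miR-124.

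Reads with an alternative seed made up 17.7%, 16.5% and 18.03% of miR-124-3p in WT and 18.3%, 18.4% and 18.2% in Tau tg. Every Tau tg mouse lay above every WT mouse, by a margin over WT 3 that was small. The Wilson 95% interval was 17.7% to 18.3% for WT 3 and 17.98% to 18.4% for Tau tg 3, and such intervals cover counting error only, since reads were counted without molecular identifiers. The means were 17.4% ± 0.795 and 18.3% ± 0.0900 (SD, n = 3, exact permutation p = 0.1, adjusted p = 0.45 over 9 measures). Of 276 miRNAs with a mean of at least 100 RPM, 11.6% had alternative seed shares that did not overlap between the groups. The means were 0.874 percentage points apart, and 0.425 when WT 2 was left out.

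The alternative seed share was also set beside that of other miRNAs. Its mean over the 6 samples was 17.9% ± 0.697 (SD), which ranked 11 among the 101 miRNAs of at least 1000 RPM, where the median was 3.43% and the range was from 0.568% to 56.0%. It was the highest share among the 10 most abundant miRNAs.

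**Figure D2:**
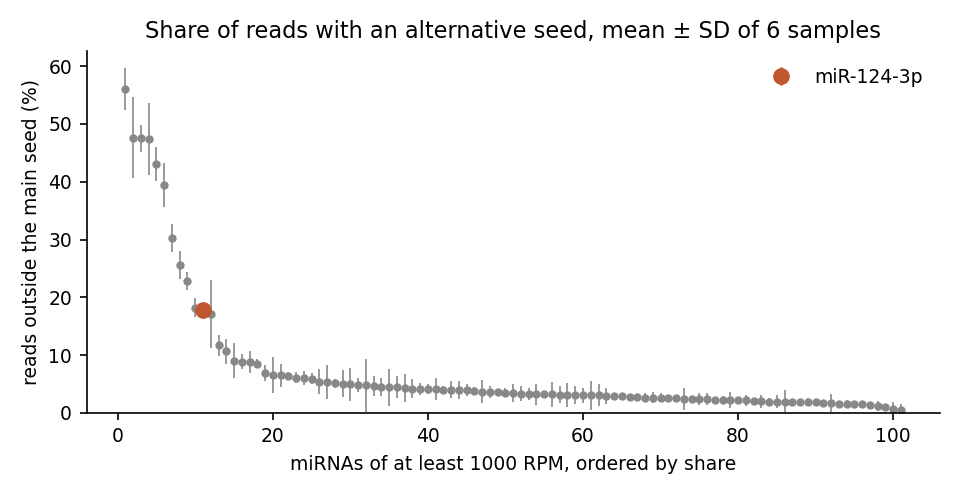
Percentage of reads outside the main 6mer seed for the 101 miRNAs of at least 1000 RPM, ordered from highest to lowest, as mean ± SD of 6 samples. miR-124-3p, the large orange point at 17.9%, ranks 11, and most miRNAs lie near the median of 3.43%.

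The start 1 nt earlier accounted for most of this share. It held 15.2%, 14.2% and 15.7% of 3p reads in WT and 16.0%, 16.2% and 16.1% in Tau tg, again with no overlap between the groups (exact permutation p = 0.1). The start 1 nt later held 1.38%, 1.28% and 1.29% in WT and 1.33%, 1.06% and 1.17% in Tau tg, and these values overlapped. Starts 2 nt earlier and 2 nt later held 0.480% and 0.233% on average. The base added in front by the earlier start was U in 95.3% to 96.9% of those reads and C in 1.85% to 3.13%.

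In RPM, which is relative to the library, reads with UAAGGC were not higher in Tau tg. Their level was 13699, 11302 and 9747 RPM in the WT mice and 10013, 11359 and 7702 RPM in the Tau tg mice. The ranges overlapped, with means of 11583 ± 1991 and 9691 ± 1849 RPM (SD, n = 3). The larger share in Tau tg was thus a share of a lower mean total, and the level of the main seed was 63863 ± 11815 and 49222 ± 9284 RPM (SD, n = 3).

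**Figure D3:**
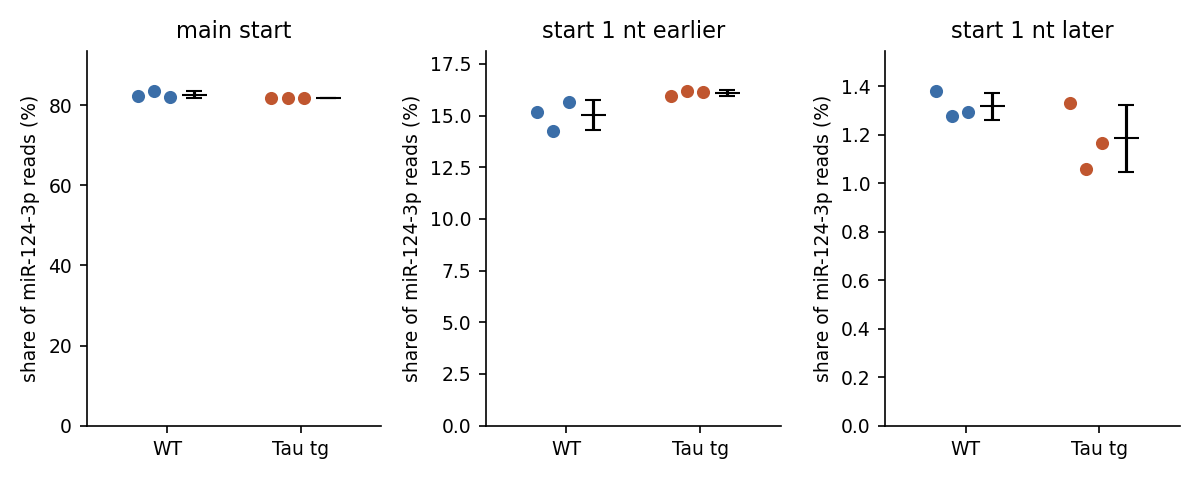
Share of miR-124-3p reads that begin at the main start, 1 nt earlier and 1 nt later, in percent on separate axes from 0. Points are single mice in replicate order and black marks are the mean ± SD of 3; only the shares at the main start and 1 nt earlier separate the groups, by 0.880 and 1.07 percentage points between means.

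The mean seed viability of miR-124-3p reads followed from these shares. It was 53.1%, 53.4% and 52.9% in WT and 52.9%, 52.9% and 52.8% in Tau tg when weighted by RPM. Each Tau tg mouse lay below each WT mouse, but the means differed by -0.257 percentage points only (exact permutation p = 0.1, adjusted p = 0.45). When WT 2 was left out the difference was -0.136. Such separation was seen in 8.33% of the 276 miRNAs. Reads under 50% viability made up 16.6% ± 0.838 of miR-124-3p in WT and 17.6% ± 0.0214 in Tau tg (SD, n = 3).

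The weight of miR-124 in the whole library was then computed. Reads of miR-124-3p with a seed under 50% made up 6.69%, 5.28% and 4.62% of all toxic-seed reads in WT and 4.41%, 5.08% and 3.45% in Tau tg. The groups overlapped, and the mean was lower in Tau tg (exact permutation p = 0.2). The mean viability of all reads was 58.2% in WT and 57.5% in Tau tg, and without miR-124 it was 58.7% ± 1.11 and 57.8% ± 0.190 (SD, n = 3, exact permutation p = 0.3). The difference between the groups was -0.749 percentage points with miR-124 and -0.889 without it. Both rested on WT 3, and when it was left out they were -0.163 and -0.290. Leaving out WT 1 gave -1.24 and -1.39.

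The 5p arm kept to 1 seed more closely than the 3p arm. Its main seed GUGUUC, with a viability of 54.8%, was left by 0.0897%, 0.166% and 1.46% of reads in WT and by 3.41%, 0.958% and 1.47% in Tau tg. The highest share was that of Tau tg 1 and the groups overlapped (exact permutation p = 0.2). The seed of reads that begin 2 nt later, GUUCAC, had a viability of 61.4%, that of reads that begin 1 nt earlier, CGUGUU, one of 45.9%, and the rare seed GUCGUG one of 65.5%. Between 137 and 2877 reads per sample stood behind these shares, so that a single read was a visible part of some of them. The mean viability of the 5p arm was 54.8% in both groups.

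The 5p arm had fewer reads and fewer recorded forms than the 3p arm, and the part of depth in the number of forms was not tested. The 21-nt form cGTGTTCacagcggaccttga held 63.0% of the arm and was at 368, 308 and 39.4 RPM in the WT mice and 240, 154 and 207 RPM in the Tau tg mice. The low value of WT 3 stood apart, and the groups overlapped. The 22-nt form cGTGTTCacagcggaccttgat, with 17.9% of the arm, was at 88.1, 10.2 and 34.9 RPM in the WT mice and 76.6, 85.3 and 79.8 RPM in the Tau tg mice. Here WT 1 was highest and the other WT mice were lowest, and the log2 fold change was 1.31 ± 0.73 (SE, limma adjusted p = 0.584). It was 0.53 without WT 2 and 2.03 without WT 1. The 20-nt form cGTGTTCacagcggaccttg held 9.55%.

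Read lengths were similar in WT and Tau tg for both arms. On average 39.0% of 3p reads had 21 nt, 21.8% had 20 nt, 17.5% had 22 nt, 14.2% had 19 nt and 5.52% had 23 nt. The mean 3p length was 20.8 nt ± 0.0364 in WT and 20.8 nt ± 0.0996 in Tau tg (SD, n = 3, exact permutation p = 0.6). Reads of 18 nt, the shortest found for this arm, made up 0.509% ± 0.108 and 0.552% ± 0.269 (SD, n = 3). The 5p arm had a mean length of 21.3 nt in both groups, with 60.5% of its reads at 21 nt on average, and WT 3 stood apart with 32.8% at that length.

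The 3′ ends were described by the bases that followed the shared stretch, written here with U. The stretch was defined as the part common to all named reads of the arm, so by definition no named read ended before it. The end CCA held 39.1% of 3p reads on average, CC 21.7%, C 16.8%, CCAA 8.38% and CCAU 4.90%, and 9 ends together held between 94.8% and 96.4% in each sample. The end CCAA was at 7.35%, 6.61% and 7.92% in WT and at 8.92%, 8.76% and 10.7% in Tau tg. Every Tau tg mouse lay above every WT mouse (exact permutation p = 0.1, adjusted p = 0.45 over the 9 ends). The end CCAUU also did not overlap and was 0.922% ± 0.303 and 1.26% ± 0.0950 (SD, n = 3). The other 7 ends overlapped between the groups, and the share of such separation over ends of other miRNAs was not computed. Within reads at the main start CCAA again did not overlap, while CCAUU did (exact permutation p = 0.2). Within reads that began 1 nt earlier both ends overlapped (exact permutation p = 0.2 each).

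Reads that began 1 nt earlier than the main start also ended earlier in each of the 6 mice. This comparison was chosen after the values had been seen and was made within each sample, over WT and Tau tg together. Reads that began 1 nt earlier were on average 21.4 nt long and reads at the main start 20.7 nt. The difference was 0.719, 0.668 and 0.716 nt in WT and 0.701, 0.722 and 0.672 nt in Tau tg, where the extra base alone would give 1. The earlier reads thus ended 0.300 nt ± 0.0240 (SD, n = 6) closer to the 5′ side, with an exact sign-flip permutation p of 0.03125, the smallest that 6 samples allow. Reads that began 1 nt later ended 0.244 nt ± 0.162 (SD, n = 6) further from the 5′ side on average, in 5 of 6 samples, since WT 3 had a value of -0.0172 (exact sign-flip permutation p = 0.0625).

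Single ends describe the same shift in the same reads. They are shares of 1 whole, where a fall of some goes with a rise of others, so they are not a further test of it. Among reads that began 1 nt earlier, the share ending in CC was 6.20 percentage points higher and that ending in C 4.81 points higher than at the main start, in 6 of 6 samples each. The share ending in CCA was lower, at -6.54 points, and that ending in CCAA at -4.62 points, again in 6 of 6 samples. Of the 9 ends, 7 differed in the same direction in all 6 samples, each with an exact sign-flip permutation p of 0.03125 (adjusted p = 0.0402). The ends CCAU and CCAUU did not differ beyond the spread over samples, with exact permutation p-values of 0.0938 and 0.375.

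**Figure D4:**
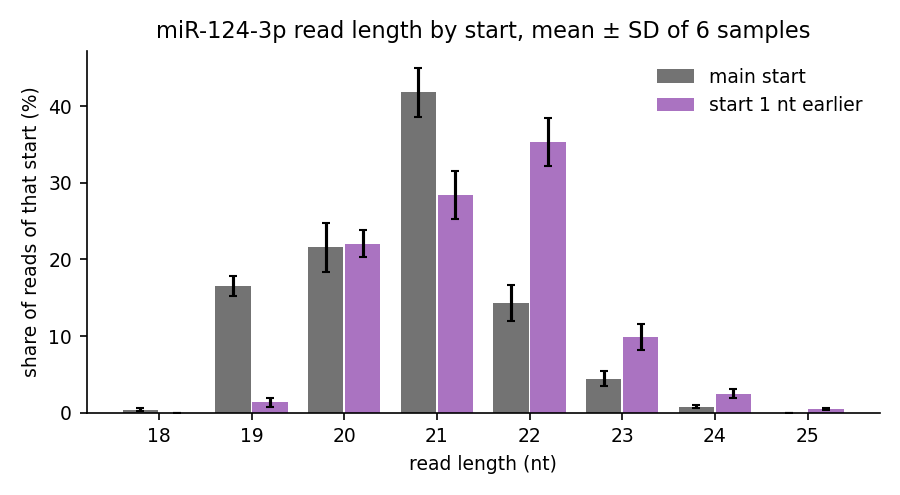
Share of miR-124-3p reads of each length in nt, for reads at the main start and reads that begin 1 nt earlier, as mean ± SD of the 6 samples. The most frequent length is 21 nt at the main start (41.8%) and 22 nt 1 nt earlier (35.3%), and reads of 21 nt remain at 28.4% for the earlier start.

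Other neuronal miRNAs were set beside miR-124-3p as background. A list of 9 neuron-enriched miRNAs, which holds both arms of miR-9, a regulator of neuronal differentiation, and miR-132-3p, which responds to neuronal activity, was measured in full. None of the 9 had a limma p under 0.05, against 3.63% of the 689 miRNAs tested, and their median log2 fold change was 0.14, against 0.25 over all miRNAs. Of these, 8 had a positive value and miR-153-3p a value of -0.17. Their summed level was between 105531 and 118539 RPM in WT and between 131696 and 136458 RPM in Tau tg, so these sums did not overlap. Without miR-9-5p the other 8 summed to between 72002 and 88911 RPM in the WT mice and to between 87131 and 88453 RPM in the Tau tg mice, which overlapped. miR-9-5p itself was at 37677, 29427 and 29628 RPM in the WT mice and 44565, 48005 and 46351 RPM in the Tau tg mice.

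Markers of other cell types were given for the same samples, and their part in the values of miR-124 was not tested. The 3 epithelial miRNAs miR-429-3p, miR-200a-3p and miR-200b-3p together ran from 1621 to 6466 RPM in WT and from 1118 to 1386 RPM in Tau tg. Of these, 3 of 3 were lower at an unadjusted limma p under 0.05 (3.63% of all miRNAs tested in either direction) but none after adjustment. Whether the 3 vary independently was not tested, so they may not be separate calls. The sum was 1621 RPM in WT 1, against 4673 and 6466 RPM in WT 2 and WT 3. For miR-200a-3p, WT 1 lay within the Tau tg range, at 930 RPM against 877 to 980 RPM. For the other epithelial miRNAs, WT 1 lay above every Tau tg mouse. The summed levels overlapped between the groups for lists of 3 oligodendrocyte, 5 leukocyte, 2 endothelial, 2 red blood cell, 2 choroid plexus and 2 neuroendocrine miRNAs, and no member of these had a limma p under 0.05, against the same 3.63%. The choroid plexus list was highest in Tau tg 1, at 8423 RPM, and in WT 3, at 4913 RPM, against 1789 to 3814 RPM in the others. No marker of these lists was at 0 in all samples.

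The miRNAs whose profile over the 6 samples was nearest to that of miR-124-3p were miR-434-3p, miR-543-3p, miR-149-5p, miR-674-3p and miR-212-3p. The measure was the root mean square difference of log2 levels, each centred on its own mean, and it was 0.150, 0.168, 0.186, 0.189 and 0.192, against a median of 0.492 over the 275 miRNAs compared. As the choice by profile favours, these 5 also had negative log2 fold changes, from -0.11 for miR-212-3p to -0.64 for miR-149-5p, and none passed limma's test (adjusted p from 0.896 to 0.966).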

How the data were processed

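The authors pulled down Ago1-4 with a GW182 peptide, gel-selected and sequenced the bound RNA, and ran the SPOROS pipeline (trimming, with Trim Galore in the submitters' processing notes, removal of rare reads, BLAST to small RNA lists). Low values are therefore incomplete. The deposited values are RPM, scaled by the authors to library size, and the deposited viability score per seed was used as given. The deposited total column was not used. All RPM values above 0 (100%) were whole multiples of 1 read within 0.0006 RPM plus 1e-06 of the value, so reads were recovered for alternatives.

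Reads were summed per arm. Mature miRNAs and sequences at 1 RPM or more on average were tested over the whole table with limma 3.58.1 with a trend on log2(RPM + 1), which understates changes of low levels, and Benjamini-Hochberg adjustment. Shares, means and ratios were compared with exact two-sided permutation tests, 1 value per mouse. The limma step was tested on simulated data. edgeR 4.0.16, DESeq2 1.42.0, Matplotlib 3.10.9, SciPy 1.17.1, pandas 2.3.3, NumPy 2.4.6, Python 3.11.15 and R 4.3.3 were used. Members and lists were chosen with earlier results of these data known. Named sequences were the 5 most abundant 3p and 3 most abundant 5p forms, the leading forms of the 3 main alternative 3p and 2 alternative 5p seeds, and up to 3 in each direction with an unadjusted p under 0.05 by difference of means. Same-numbered samples did not deviate together (r = -0.00201, -0.0693 and 0.0413), so the numbers were not treated as pairs.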

Additional observations from a re-analysis of the deposited data

How the results depend on the processing

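Of 161 settings tried for the main results, 139 kept the direction or, for counts, stayed within 1.5 times, and 269 of 278 for named sequences kept the direction. The exact permutation tests could not pass 0.05 under any setting, so their side of it says nothing about stability. Quantile normalization set the log2 fold change of miR-124-3p to 0, since it ranked first in every sample. Leaving out 1 sample gave -0.51 (without WT 3) to -0.20 (without Tau tg 3), and median-of-ratios scaling, edgeR and DESeq2 gave -0.52, -0.47 and -0.50 (unadjusted p = 0.0960, 0.0780 and 0.0788 from limma, edgeR and DESeq2). The value for miR-124-5p was -0.12 in edgeR and -0.15 in DESeq2 and -0.45 (without WT 3) to 0.57 (without WT 1) with 1 sample left out. The cause was not tested. The count of 11 sequences with p under 0.05 became 4 (1.13% against 1.19% of all sequences) with a pseudocount of 5, 2 (2.08% against 4.28%) at a mean of at least 10 RPM, where fewer were tested, 7 (1.98% against 1.64%) without the trend, 4 (1.13% against 7.11%) in edgeR and 4 (without Tau tg 3) to 13 with 1 sample left out. The share was 1.15% against 1.74% of all sequences without Tau tg 3, and 3.71% against 2.62% without WT 3, which gave the 13. Leaving out Tau tg 2 gave 5 (1.41% against 1.55%) and leaving out Tau tg 1 gave 6 (1.68% against 1.9%). For the 5p arm, sequences above 0 in all 6 samples hold 1 seed only, so the differences in alternative seed share and viability became 0, and a mean of at least 1 RPM turned the viability difference to -0.0350. With 1 sample left out, differences ran from -0.0965 to 0.0929 for 5p viability, from -0.212 to 0.256 nt for 5p length and from -0.0982 to 0.169 points for 3p reads of 15 to 18 nt. The log2 fold change of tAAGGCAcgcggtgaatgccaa was 0.000511 in edgeR and -0.10 to 0.12 with 1 sample left out. That of cGTGTTCacagcggaccttga was -0.22 in edgeR, -0.39 in DESeq2 and -0.77 to 0.83 with 1 left out, and that of cGTGTTCacagcggaccttg -0.73 to 0.64. With the replicate block the count of 11 sequences stayed 11 (3.11% against 2.24% of all sequences). In that fit miR-124-3p had a limma p of 0.230 and an adjusted p of 0.879, and no call changed. The smallest paired exact permutation p possible was 0.25. Reads of 19 to 25 nt give no value for the share of 15 to 18 nt. The alternatives and measures that need a reference hairpin were not run.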

Other observations

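Further reads had no miRNA name although their annotation pointed to a miR-124 hairpin. There were 368 such sequences of 15 to 24 nt, of which 365 held at least 7 bases of the stretch shared by the 3p arm. All 368 together were at 1928, 1693 and 1267 RPM in the WT mice and 1468, 1510 and 1105 RPM in the Tau tg mice. This was 2.03% to 2.34% of the miR-124-3p level in each sample. The groups overlapped (exact permutation p = 0.4). Of these sequences, 148 carried the main 3p seed. Adding the 365 to the 3p arm was an alternative chosen after seeing the data. It gave a log2 fold change of -0.36 and a difference in alternative seed share of 0.952 percentage points. The difference in mean viability was -0.233 percentage points (exact permutation p = 0.2).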
